A study of Mus musculus with 2 samples.

Results

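The miR-200 family, miR-203 and miR-205 were read in exosomes released by 2 murine pancreatic cell lines. The 10 miRNAs were chosen by their names on the array, out of 1881 mouse miRNAs. On the array they are named mmu-miR-200a-3p, mmu-miR-200a-5p, mmu-miR-200b-3p, mmu-miR-200b-5p, mmu-miR-200c-3p, mmu-miR-200c-5p, mmu-miR-141-3p, mmu-miR-429-3p, mmu-miR-203-3p and mmu-miR-205-5p, and they are written here without the prefix for mouse. KPC-exosomes came from a cancer line grown out of a tumour of mice that carry Trp53LSL-R172H/+ and Pdx1-Cre, in which Cre under the Pdx1 promoter switches on mutant p53 in pancreatic cells. These cells were kept in RPMI-1640 with 20% FBS, sodium pyruvate and non-essential amino acids. MPDC-exosomes, the control, came from a purchased line of mouse pancreatic ductal epithelial cells kept in DMEM with 10% FBS, for which no engineered allele is stated. Both kinds of exosome were collected from culture supernatant by ultracentrifugation, and their RNA was labelled with the dye Cy3 and read on Agilent arrays for mouse miRNAs, 1 array per kind of exosome and both on the same slide. One line stood for each condition and the lines also differed in genotype, medium and serum, so these cannot be told apart, and no difference has a replicate check, an SD or a p-value. By the labels' wording 0.5 µg RNA of each sample was labelled, so a signal describes a miRNA within that RNA. The number of vesicles and the miRNA molecules per vesicle cannot be told apart on such an array either.

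The miR-200 family holds epithelial cells in their state. Its 3p strands pair with the mRNAs of ZEB1 and ZEB2, repressors of E-cadherin, and these repressors in turn bind the promoters of the family's genes, so that the family and ZEB proteins shut each other off. Loss of the family is a known feature of epithelial cells that turn mesenchymal, including pancreatic tumour cells. miR-205 is a marker of basal and stratified epithelia and also pairs with ZEB mRNAs. miR-203 acts in skin, where it ends the renewal of epidermal stem cells through p63.

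A miRNA finds its targets through its seed, bases 2 to 8, so the sequences decide which members can share targets. Mature sequences of all 10 members were found in RefSeq (GRCm38.p6) and are written from 5′ to 3′ with the seed in capitals. The 3p strands carry one of 2 seeds, which differ at a single base. The first group holds miR-200b, miR-200c and miR-429.
miR-200b-3p: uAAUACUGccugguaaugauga
miR-200c-3p: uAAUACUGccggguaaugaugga
miR-429-3p: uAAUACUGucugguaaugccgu
The second group holds miR-200a and miR-141.
miR-200a-3p: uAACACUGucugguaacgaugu
miR-141-3p: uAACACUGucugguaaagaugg
The 5p strands are the opposite side of the same hairpins and have other seeds, the same one in miR-200a-5p and miR-200b-5p.
miR-200a-5p: cAUCUUACcggacagugcugga
miR-200b-5p: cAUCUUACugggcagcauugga
miR-200c-5p: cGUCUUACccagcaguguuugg
miR-203 and miR-205 share a seed with none of these.
miR-203-3p: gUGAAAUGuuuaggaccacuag
miR-205-5p: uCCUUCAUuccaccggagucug

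Outside the seed the 3p strands of different hairpins also resemble each other. miR-200b-3p and miR-200c-3p differ at 2 of 22 aligned bases, as do miR-200a-3p and miR-141-3p. The genes lie in 2 clusters. Mir200b, Mir200a and Mir429 span 1846 bp on the minus strand of chromosome 4 (Mir200b at chr4:156055681-156055750, Mir200a at chr4:156054896-156054985 and Mir429 at chr4:156053905-156053987), within the predicted gene Gm13648. Mir200c (chr6:124718322-124718390) and Mir141 (chr6:124717914-124717985) span 477 bp on the minus strand of chromosome 6 and overlap no other listed gene, with Phb2 as the nearest coding gene. Both clusters hold both 3p seeds. Mir203 (chr12:112130880-112130955, plus strand) and Mir205 (chr1:193507463-193507530, minus strand, inside the host gene Mir205hg) stand alone.

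Each member was read by 2 to 4 probes, 25 in all, on 300 spots per array, none of them saturated. The signal of a miRNA is the sum of the total signals of its detected probes in arbitrary units. Detection of a probe meant a signal above 3 times the error that the scanner software gave it. Errors below are this scanner error, which covers the measurement on these arrays and not the variation between exosome preparations. Differences are log2 of KPC-exosomes minus MPDC-exosomes. They are given before normalization and, second, after quantile normalization, which gave values within 1.11e-05 (log2) of the deposited ones. The pair is needed because the arrays differed as a whole. Of the 726 miRNAs detected on both arrays 591 were lower in KPC-exosomes before normalization, with a median difference of -1.37, while after quantile normalization the median was 0.53. The 4 spike-in controls differed by -0.31 to 0.38, with a mean of 0.03.

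The 3p strands of the miR-200 family were lower in KPC-exosomes, and miR-200a-5p was higher. Before normalization all 5 of the 3p strands were at least 4-fold lower, miR-200c-3p by the widest margin. Many other miRNAs were also far lower. Of the 726 detected on both arrays, 1.10% had a lower difference than miR-200c-3p, 13.4% than miR-200b-3p and 13.9% than miR-200a-3p. For miR-429-3p this share was 26.9% and for miR-141-3p 30.3%. Both miR-203-3p and miR-205-5p passed detection only in MPDC-exosomes, and miR-200c-5p on neither array. Detection thus covered 7 members in KPC-exosomes and 9 in MPDC-exosomes. Fewer miRNAs of any kind were detected in KPC-exosomes, 41.0% of all 1881 against 54.8% in MPDC-exosomes.

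**Figure D1:**
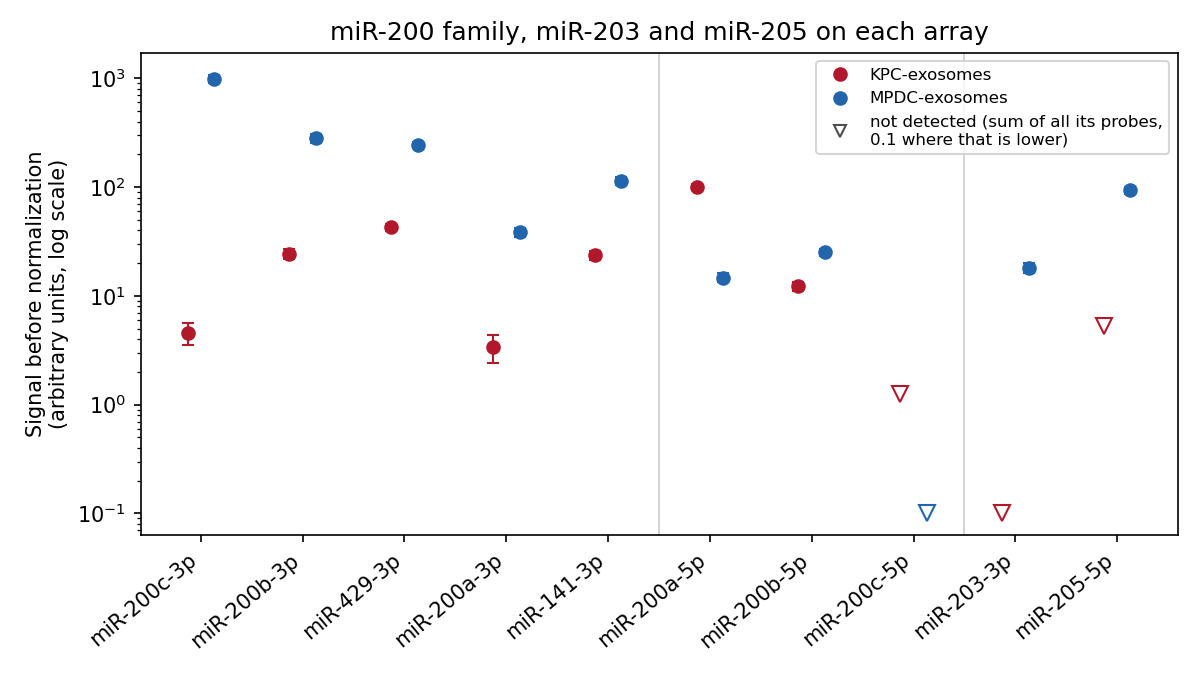
Signal of each of the 10 miRNAs before normalization (arbitrary units, log scale) in KPC-exosomes (red) and MPDC-exosomes (blue), with scanner errors as bars. Open triangles mark miRNAs not detected on an array, drawn at the sum over all their probes or at 0.1. The red point lies below the blue one for every 3p strand of the family and above it for miR-200a-5p.

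The group that shares the seed AAUACUG had the widest gap. miR-200c-3p gave a signal of 4.58 ± 1.04 in KPC-exosomes against 991 ± 83.4 in MPDC-exosomes. In KPC-exosomes it was therefore close to the detection limit, where 1 of its 2 probes was detected, while both probes were detected in MPDC-exosomes. The difference was -7.76 ± 0.35 before normalization, or 216-fold, and -5.99 after it, or 63.4-fold. Only 1.10% of those 726 miRNAs had a lower difference.

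miR-200b-3p, which differs from miR-200c-3p at few bases, gave 24.4 ± 2.52 in KPC-exosomes against 281 ± 24.8 in MPDC-exosomes. Its difference was -3.53 ± 0.20 (11.5-fold) before normalization and -1.72 after it. miR-429-3p was read at 42.8 ± 3.31 and 244 ± 17.4, a difference of -2.51 ± 0.15 (5.70-fold) before and -0.66 after normalization. All 3 members of the group were lower whichever values were used, but miR-429-3p was past 2-fold only before normalization.

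In the group with the seed AACACUG, miR-200a-3p gave 3.38 ± 0.99 in KPC-exosomes against 38.3 ± 3.48 in MPDC-exosomes. In KPC-exosomes it was close to the detection limit and 1 of its 2 probes was detected, while both were in MPDC-exosomes. The difference was -3.50 ± 0.44 (11.3-fold) before normalization and -1.47 after it. By the probe detected on both arrays alone it was -3.19 ± 0.45 before normalization. miR-141-3p was read at 23.6 ± 2.18 and 114 ± 10.1, a difference of -2.28 ± 0.18 (4.84-fold) before and -0.39 after normalization. As in the first group, both strands were lower in KPC-exosomes and 1 of them, here miR-141-3p, was within 2-fold after quantile normalization. The seed groups overlapped in their differences, which ran from -7.76 to -2.51 in the first and from -3.50 to -2.28 in the second.

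Among the 5p strands of the family, miR-200a-5p alone clearly went another way. The signal of miR-200a-5p was 99.8 ± 6.04 in KPC-exosomes against 14.8 ± 1.45 in MPDC-exosomes, which made a difference of 2.76 ± 0.17 (6.77-fold) before normalization. It was the one member higher in KPC-exosomes, and 96.8% of the 726 miRNAs had a lower difference. After quantile normalization its difference became 7.23, or 150-fold, because its signal in MPDC-exosomes was moved to 0.28 on the log2 scale and that in KPC-exosomes to 7.51. The size of this difference, but not its direction, thus rests on the normalization.

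miR-200b-5p, with the same seed, was read at 12.3 ± 1.12 and 25.1 ± 1.89. Its difference was -1.03 ± 0.17 before normalization and 0.73 after it, so its direction depended on the scaling, and it lay 0.34 above the median of all miRNAs before normalization. All 4 probes of miR-200c-5p were under the detection limit on both arrays.

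miR-203-3p was read at 18.1 ± 1.98 in MPDC-exosomes by both of its probes, and its probes summed to -0.18 in KPC-exosomes, so no signal was seen there. Set against the lowest signal of a detected miRNA on the array of KPC-exosomes, it was 12.9-fold lower before normalization and 1.82-fold after it. Such a ratio, called a bound here, is not a strict minimum. Each probe of miR-203-3p had an error of 0.93 in KPC-exosomes and would be detected only above 3 errors. miR-205-5p was read at 94.0 ± 7.10 in MPDC-exosomes. Its 2 probes in KPC-exosomes gave 2.44 ± 0.97 and 2.88 ± 0.97, just short of 3 errors, so miR-205-5p was not detected there but a weak signal was present. Set against the sum of these probes, 5.32, it was 17.7-fold lower before normalization and 4.60-fold after it. This bound leaves out the errors of the 2 probes and is no strict minimum either.

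Counted by the filter of the methods, detection on at least 1 array and a 2-fold difference after quantile normalization, 5 of 9 members were lower and 1 was higher in KPC-exosomes. The 5 include miR-203-3p, which is past 2-fold only through the floor of 0.1 given to undetected miRNAs, and with bounds in place of floors 4 were lower. Over all 1077 miRNAs that passed detection, 42.7% were lower and 31.5% higher by the same filter. Before normalization 8 of 9 were lower and 1 higher, against 68.0% and 11.1% of all. Being lower was common among all miRNAs, so these counts by themselves set the members little apart. Among the 7 members detected on both arrays, 3 were at least 2-fold lower after quantile normalization against 21.3% of all such miRNAs, and 6 before it against 58.8%. The 1 member at least 2-fold higher, miR-200a-5p, stood against 40.4% of them after quantile normalization and 10.2% before it. The median difference of these 7 members lay 1.19 below that of all 726 miRNAs after quantile normalization and 1.14 below it before.

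**Figure D2:**
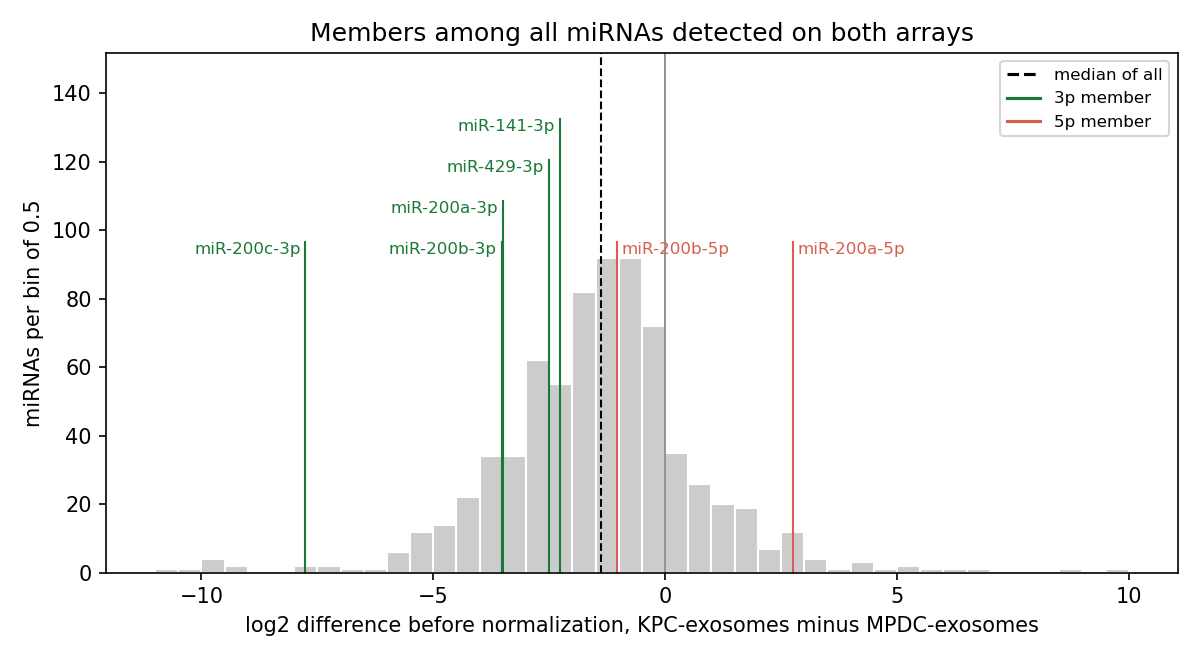
Number of miRNAs per bin of 0.5 along the log2 difference before normalization, for the 726 miRNAs detected on both arrays (grey bars), with their median of -1.37 (dashed line) and the 7 members detected on both arrays (green, 3p strands; orange, 5p strands). The 5 green lines lie left of the median, the line of miR-200b-5p at -1.03 just right of it and that of miR-200a-5p at 2.76 far to the right.

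The 2 strands of a hairpin come from the same precursor, so their differences can be set against each other, and any linear scaling of an array cancels. For miR-200a the difference of the 5p strand exceeded that of the 3p strand by 6.26 ± 0.47 on the log2 scale. With all probes, detected or not, this contrast was 5.97. For miR-200b the same contrast was 2.50 ± 0.26. The contrast of miR-200a kept its direction when each 5p probe was taken alone (5.93 to 6.89). That of miR-200b depended on the probe. It was -0.053 by the 12-base probe of miR-200b-5p, which was not detected in KPC-exosomes, and 3.11, 3.45 and 4.23 by the 13-, 14- and 15-base probes. Of the 105 hairpins with both strands detected on both arrays, 55 had a positive contrast. Over the 105 the contrasts had a median of 0.07 and quartiles of -1.24 and 0.99. The contrast of miR-200a was exceeded by 2 hairpins, that of miR-200b by 14. Before normalization miR-200a was 1 of 6 hairpins whose 5p strand was at least 2-fold higher and whose 3p strand at least 2-fold lower in KPC-exosomes, and the reverse was seen in 0 of the 105.

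The other strands of the remaining hairpins added little. miR-141-5p was detected by 1 of 4 probes in MPDC-exosomes, at 1.58 ± 0.49, and not in KPC-exosomes. miR-429-5p, miR-203-5p and miR-205-3p were detected on neither array.

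Within the cluster on chromosome 6, miR-200c-3p and miR-141-3p lie on 1 strand less than a kilobase apart. The difference of miR-200c-3p minus that of miR-141-3p was -5.48 ± 0.39, so the ratio of the pair differed 44.6-fold between the arrays. In the cluster on chromosome 4 the 3p strands of miR-200a, miR-200b and miR-429 stayed closer together, with differences from -3.53 to -2.51.

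The probes of a miRNA are of different length and each is an own measurement of it, so they were compared one by one. On the array a probe is repeated on 7 to 15 spots, whose processed signals are given here, with the spots that the software flagged as outliers left out. For 17 of the 25 probes the spots of the 2 arrays did not overlap, 14 of these being dimmer and 3 brighter in KPC-exosomes. The same count was not made over all probes of the arrays, so it does not set the members apart. Counted per miRNA and by direction alone, 591 of the 726 miRNAs detected on both arrays were lower before normalization. That count is of another kind and is no share for the spots. The longer probe of miR-200c-3p gave spots from 10.4 to 22.6 with a median of 17.4 in KPC-exosomes, and from 2608 to 3201 with a median of 2998 in MPDC-exosomes. The shorter probe gave spots from 1.37 to 14.1 and from 616 to 678. Both probes of miR-200c-3p were therefore dimmer in KPC-exosomes at every spot. All 3 probes of miR-200a-5p were brighter in KPC-exosomes at every spot, with medians of 193, 206 and 179 against 30.4, 22.2 and 31.4.

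**Figure D3:**
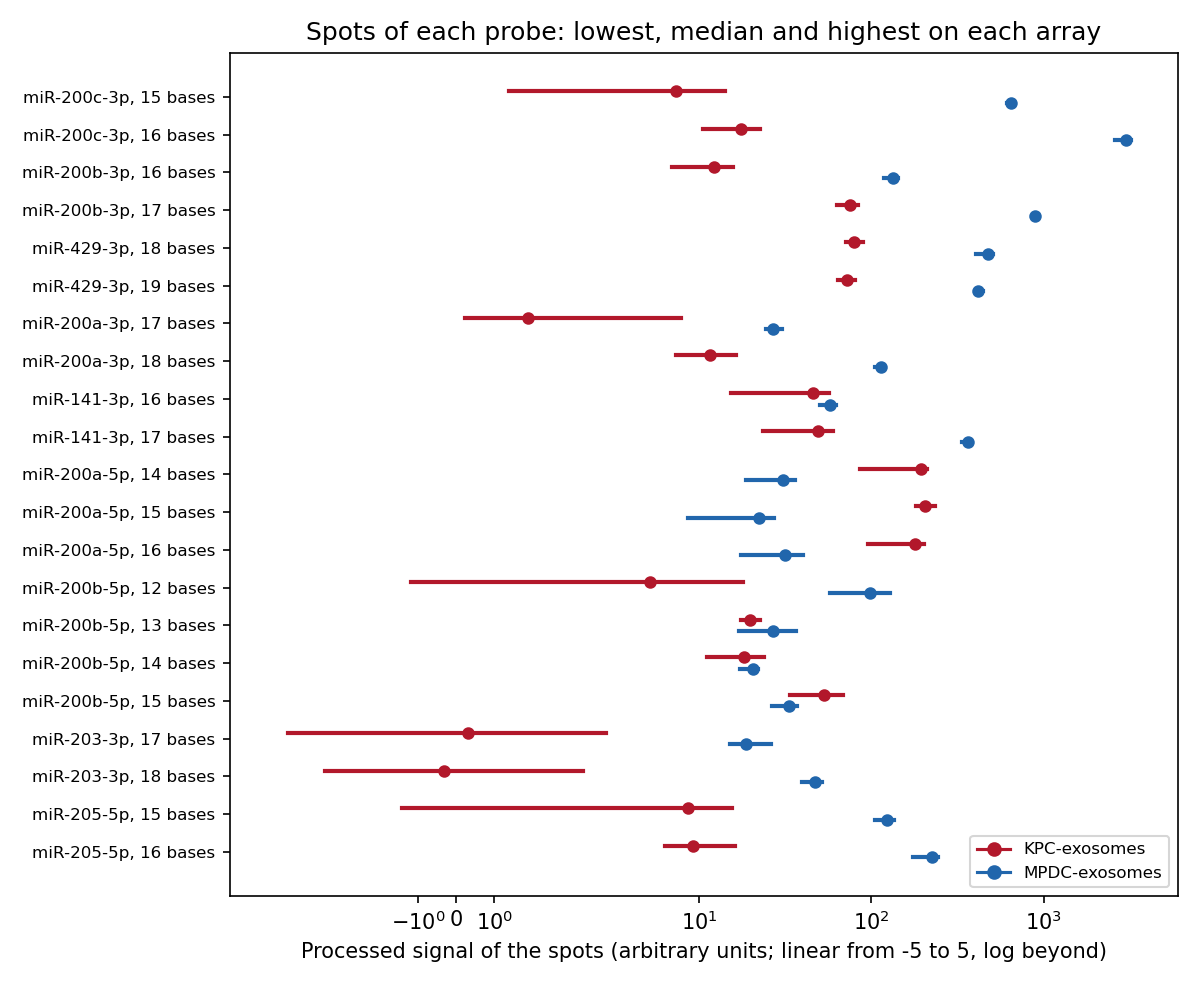
Lowest, median (point) and highest processed signal over the spots of each probe detected on at least 1 array, labelled by miRNA and probe length, in KPC-exosomes (red) and MPDC-exosomes (blue); the axis is linear between -5 and 5 and logarithmic beyond. Red and blue ranges overlap for the 16-base probe of miR-141-3p and for the 3 longer probes of miR-200b-5p.

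For miR-141-3p and miR-200b-5p the probes of the same miRNA gave different readings. The probes of miR-141-3p, written 5′ to 3′, pair with its 3′ part and differ in length by 1 base.
16-base probe: ccatctttaccagaca
17-base probe: ccatctttaccagacag
The shorter one gave total signals of 11.2 ± 1.50 in KPC-exosomes against 15.7 ± 1.86 in MPDC-exosomes, or a difference of -0.49 ± 0.26. The longer one gave 12.4 ± 1.58 and 98.6 ± 9.92, a difference of -2.99 ± 0.23. Both were lower, but by unlike amounts, and the spots of the shorter one overlapped between the arrays (15.3 to 56.9 against 50.3 to 62.4). The low difference of miR-141-3p and the size of its contrast with miR-200c-3p rest on which probe is taken.

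For miR-200b-5p the probes disagreed in direction. The shortest and the longest were as follows.
12-base probe: tccaatgctgcc
15-base probe: tccaatgctgcccag
The 12-base probe was not detected in KPC-exosomes (1.20 ± 0.52) and gave 14.3 ± 1.57 in MPDC-exosomes. The 15-base probe gave 6.84 ± 0.82 and 4.20 ± 0.63, and was thus higher in KPC-exosomes by 0.70 ± 0.28. The 2 probes of intermediate length differed by -0.42 ± 0.37 and -0.08 ± 0.42, within or near their errors. No direction can be given for miR-200b-5p from these probes.

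No probe of a member was complementary over its whole length to a second mature mouse miRNA in RefSeq. The longest run that a probe shared with a second miRNA was 12 bases, between the longer probe of miR-200a-3p and miR-429-3p and between the probes of miR-429-3p and miR-200a-3p. Whether such shared runs took part in a signal was not tested.

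The place of a spot on the array moved with some of these signals. Over the 1542 detected probes of the array of KPC-exosomes, the spots to the right of the middle column were brighter than those to its left by a median of 0.13 on the log2 scale, and by 0.05 over 2121 probes on the array of MPDC-exosomes. For the probes of miR-200a-5p the right side was brighter by 0.76, 0.30 and 0.88 in KPC-exosomes and by 0.36, 0.56 and 0.64 in MPDC-exosomes. The variation among the spots of these probes in KPC-exosomes, a CV of 21.9% to 33.9%, stood above the 95th percentile of probes of like signal. For miR-141-3p the right side was brighter by 0.52 and 0.68 in KPC-exosomes but by 0.03 and 0.01 in MPDC-exosomes. The 13-, 14- and 15-base probes of miR-200b-5p gave 0.44, -0.11 and 0.55 in KPC-exosomes. In MPDC-exosomes they gave 0.46, 0.11 and 0.31, and the 12-base probe gave 0.49. That 12-base probe had a CV of 27.5% there, above the 95th percentile of 18.7% for probes of like signal. The probes of miR-429-3p showed no such step, with values from -0.07 to 0.04. When the contrasts were computed from the spots of 1 side, a choice made after the data were seen, that of miR-200a was 6.16 from the left and 6.24 from the right, that of miR-200b was 2.60 and 2.42, and that of miR-200c-3p with miR-141-3p was -5.09 and -5.76. None of these differed from the value over all spots by more than its scanner error.

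**Figure D4:**
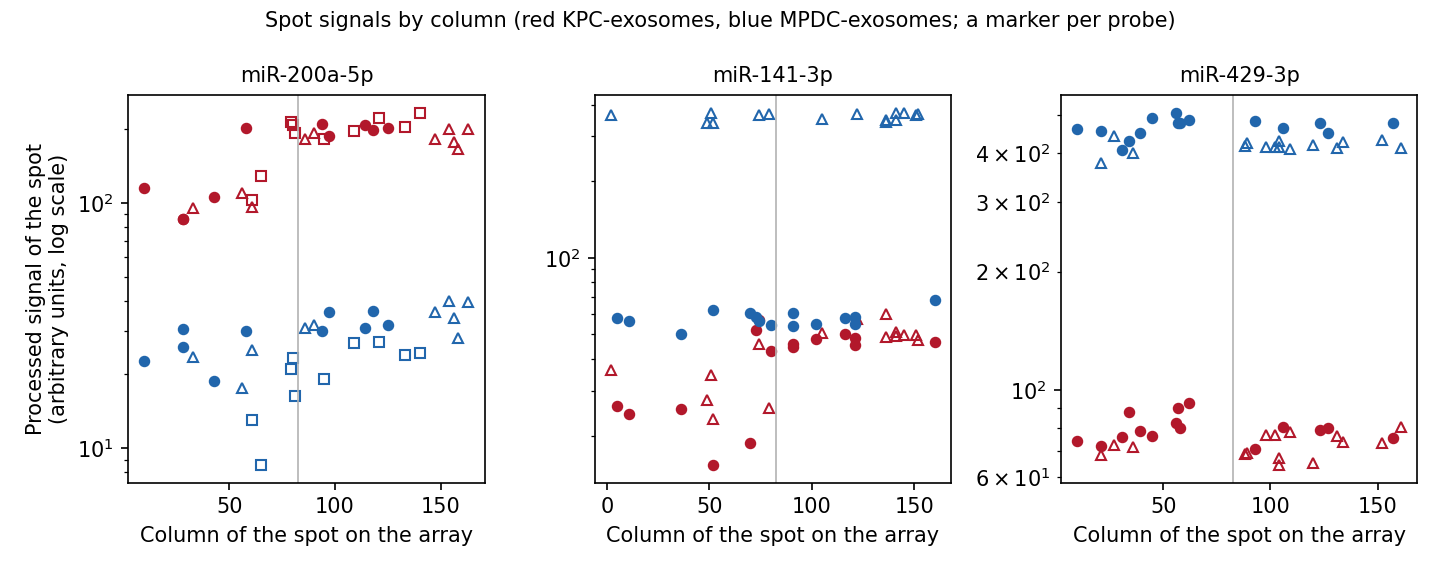
Processed signal of every spot (arbitrary units, log scale, a separate scale in each panel) against its column on the array, for miR-200a-5p, miR-141-3p and miR-429-3p in KPC-exosomes (red) and MPDC-exosomes (blue), with one marker shape per probe and a grey line at the middle of the array. Spots of miR-200a-5p on both arrays and of miR-141-3p in KPC-exosomes are dimmer on the left, those of miR-429-3p are level, and the red and blue spots of miR-200a-5p stay apart in every column.

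How the arrays are brought to one scale set the size of each difference. Over 6 settings, miR-200c-3p ranged from -7.78 to -5.99, miR-200b-3p from -3.55 to -1.72 and miR-200a-3p from -3.53 to -1.47, each at least 2-fold lower in all 6. miR-429-3p ranged from -2.54 to -0.66 and miR-141-3p from -2.30 to -0.39, and both were lower in all 6. miR-200b-5p ranged from -1.06 to 0.73 and was higher in KPC-exosomes in every setting but no normalization and spike-in scaling. miR-200a-5p ranged from 2.73 to 7.23, higher in all 6. After scaling by the median, 5 of 9 members were lower and 1 was higher, against 45.1% and 25.8% of all miRNAs, and of the 7 detected on both arrays 3 were lower and 1 was higher, against 24.9% and 32.0%. In this setting the bounds put miR-203-3p 4.16-fold and miR-205-5p 5.72-fold lower.

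**Figure D5:**
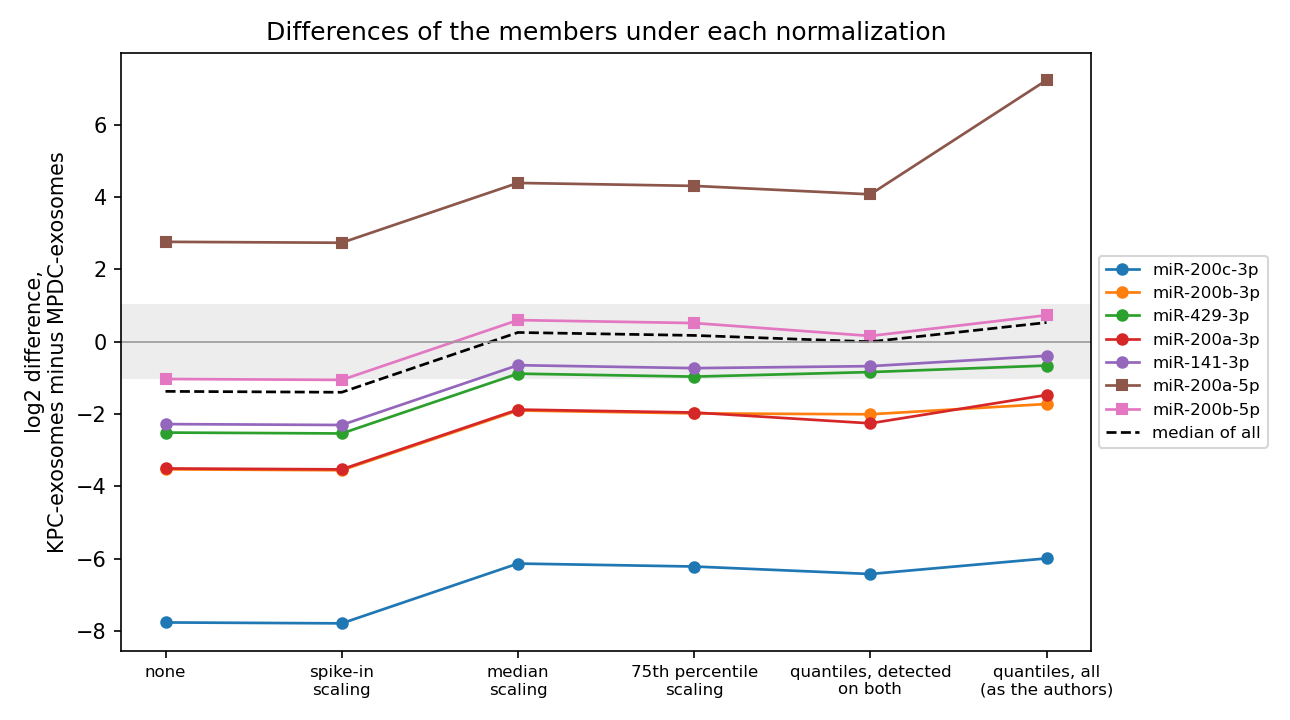
Log2 difference of KPC-exosomes minus MPDC-exosomes for the 7 members detected on both arrays (circles, 3p strands; squares, 5p strands) under 6 ways of scaling the arrays, with the median over the 726 miRNAs (dashed) and the range within 2-fold in grey. The 5 lines of the 3p strands stay below 0 and below the dashed line throughout, and only miR-200b-5p crosses 0.

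Other miRNAs known for their cell type were read beside the family to check the epithelial label. Of 7 other epithelial miRNAs, 3 were at least 2-fold lower, 2 were higher and 2 were detected on neither array, with or without normalization. Among all 726 miRNAs detected on both arrays, 58.8% were at least 2-fold lower and 10.2% higher before normalization. After quantile normalization these shares were 21.3% and 40.4%. miR-96-5p gave 276 ± 20.5 in KPC-exosomes against 12697 ± 930 in MPDC-exosomes, and miR-183-5p of the same cluster, known from sensory epithelia, at 478 ± 40.5 and 5639 ± 472. miR-192-5p, abundant in gut and liver epithelium, was read at 5367 ± 422 and 1240 ± 99.0. The lower ones, which also include miR-182-5p, and the higher ones, miR-192-5p and miR-194-5p, belong to different clusters. The 5 detected miRNAs of this list thus did not all go one way. miR-182-5p and miR-194-5p are named here after their values were seen.

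The miRNAs listed as mesenchymal, a list meant for fibroblasts and related cells, were lower in KPC-exosomes as well. Whether each of them, miR-10b-5p included, is particular to such cells was not tested. Only 1 of the 7 passed detection in KPC-exosomes and all 7 did in MPDC-exosomes, so for 6 there is a bound in place of a fold. Over all miRNAs on the array, 41.0% were detected in KPC-exosomes and 54.8% in MPDC-exosomes. Before normalization all 7 were at least 2-fold lower by fold or bound. After quantile normalization 5 were, while miR-143-3p had a bound of 1.51-fold and miR-145a-5p had none, both named after their values were seen. Over all miRNAs 68.0% were lower before and 42.7% after normalization, counted with floors. The highest signals were those of miR-10b-5p, at 57.9 ± 4.52 in KPC-exosomes and 432 ± 32.3 in MPDC-exosomes, and of miR-199a-3p and miR-199b-5p, at 156 ± 12.5 and 66.6 ± 5.73 in MPDC-exosomes and not detected in KPC-exosomes. None of the 7 was at least 2-fold higher in KPC-exosomes, where 6 were not detected. Whether the cells were in a mesenchymal state was not tested. The part of other cell types in either preparation was not tested.

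miR-34, whose genes are targets of p53, was lower in KPC-exosomes in all 3 of its forms. miR-34a-5p was read at 37.7 ± 3.34 in KPC-exosomes and 472 ± 39.2 in MPDC-exosomes. miR-34b-5p and miR-34c-5p were read at 70.9 ± 5.64 and 56.0 ± 5.22 in MPDC-exosomes only. All 3 were at least 2-fold lower by fold or bound, before and after quantile normalization. Over all miRNAs detected on at least 1 array, 68.0% were lower before and 42.7% after it, counted with floors. Of the acinar miRNAs, miR-217-5p gave 60.9 ± 3.42 in KPC-exosomes and was not detected in MPDC-exosomes, and miR-216a-5p and miR-216b-5p on neither array.

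The miRNAs with the differences nearest to that of miR-200c-3p, over the 2 arrays and before normalization, were miR-196a-5p at -7.72, miR-669f-3p at -7.25 and miR-1839-3p at -7.07. Those nearest to miR-200a-5p were miR-125b-5p at 2.75, miR-3093-5p at 2.79 and miR-7648-3p at 2.70. No other member was among them, and with 1 array per group such closeness describes these arrays only.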

How the data were processed

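The authors deposited the Agilent Feature Extraction output of each array (version 10.7.1.1 in the file header, 9.1 in the submitters' processing notes), whose signals are intensities on a linear scale with the background subtracted within the array. A table of log2 values, 1 per miRNA, was deposited as well, normalized in GeneSpring by a method that is not given in the sources used here. A further allele of the KPC mice is not reported here. The labels' wording describes a cRNA labelling of 0.5 µg RNA.

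From the intensities, the total signals of probes above 3 errors were summed per miRNA, other miRNAs received a floor of 0.1, and quantile normalization was run on the log2 sums of both arrays and 21 control features. A bound for a miRNA detected on 1 array set its signal against the lowest detected signal of the other array or its own sum over all probes, whichever was higher. The bound left out the scanner errors and is not a strict minimum. Spots flagged by the software stayed in the totals. Contrasts were computed before normalization. With 1 array per group no test was possible. The number of arrays limits the precision. The members and lists were chosen with earlier results of these data known. All 10 members were named, with the opposite strands of their hairpins, at most 3 miRNAs of each other list (those of the largest signal) and the 3 nearest in difference to miR-200c-3p and to miR-200a-5p. The 20 other-list miRNAs fell into lists of other epithelial, mesenchymal, miR-34 and acinar miRNAs. Probe positions of the files, on mm9, were not used, since they placed the strands of 6 of 7 hairpins in the opposite order to RefSeq.

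Alternatives were other scalings of the arrays, no normalization, the deposited values, the brightest probe or all probes in place of detected ones, the processed signal, normexp correction with an offset of 50, a 4-fold threshold, detection on both arrays, a difference above 2 scanner errors, other floors, each probe alone and, added after the data were seen, the spots of either side of the array and single probes of miR-141-3p and of the 5p strands of miR-200a and miR-200b. The quantile and call steps were tested on simulated data. For the quantile step these data held neither a shift between the arrays nor miRNAs at the floor. That test therefore does not cover arrays that differ as these did. Software was Python 3.11.15 (numpy 2.4.6, pandas 2.3.3, matplotlib 3.10.9) and R 4.3.3 (limma 3.58.1, for normexp).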

Additional observations from a re-analysis of the deposited data

How the results depend on the processing

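The 1 member higher in KPC-exosomes was counted under each of the 15 alternatives tried for it. The count of lower members, 5, became 8 with no normalization and 8 with spike-in scaling, and it became 3 at a 4-fold threshold, 3 with detection on both arrays, 3 above 2 scanner errors and 1 with normexp correction, where an offset of 50 is added to every signal. The median of the members relative to all miRNAs, -1.19, was -0.84 with quantiles taken over the 726 miRNAs only, -1.63 with the brightest probe and -0.51 with normexp correction. The strand contrast of miR-200a, 6.26, was 8.70 after quantile normalization and 2.09 with normexp correction, and that of miR-200b, 2.50, was 1.76 with normexp correction. By single 5p probes, also chosen after the data were seen, the contrast of miR-200a was 6.89 with the 15-base probe and that of miR-200b was -0.053, 3.11, 3.45 and 4.23 with the 12-, 13-, 14- and 15-base probes. The contrast of miR-200c-3p with miR-141-3p, -5.48, was -4.48 with the brightest probe, -4.97 with all probes, -3.09 with normexp correction and, chosen after the data were seen, -7.27 with the shorter probe of miR-141-3p only. The difference of miR-200b-5p, -1.03 before normalization, was 0.70 by its 15-base probe alone. The cause of these shifts was not tested. In all, 48 alternatives, those 15 among them, moved these counts and contrasts by no more than 1.5 times or the scanner error. Of the others, 14 moved a value by more, 4 lowered and 2 raised the count of lower members, and 1 reversed a contrast. Some of the 48 could not move. The deposited values equal those after quantile normalization, and every linear scaling gives the same relative median. The differences of miR-200c-3p and miR-200a-3p rest on signals near the detection limit, since in KPC-exosomes they were read at 4.41 and 3.42 errors. No paired analysis was possible because each group had 1 array.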
